A study of Homo sapiens with 6 samples.

Results

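Nucleolar ribosome biogenesis genes encode the proteins that make ribosomal RNA (rRNA) and assemble it into ribosomal subunits. The group described here holds 44 genes chosen by name: subunits of RNA polymerase I and its partners, proteins of small nucleolar ribonucleoproteins (snoRNPs), factors of 40S and 60S subunit assembly, and abundant nucleolar proteins. Of the 44, 26 appear in the table that the study's authors deposited, which lists 6831 of 15064 genes tested. The cell line was MOLM-13, derived from acute myeloid leukaemia and labelled wild type. Its cells were kept for 24 h in 50 nM DEG-35 (3 RNA-seq libraries). They were set against cells of the line kept for 24 h in the solvent DMSO (3 libraries). Per the study's title, DEG-35 degrades both IKZF2, a zinc-finger transcription factor, and CK1α, a kinase known as a negative regulator of p53, and the question was which genes the compound regulates.

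Ribosome production begins in the nucleolus, where RNA polymerase I transcribes the rRNA genes. SnoRNPs guide methylation and pseudouridylation of the transcript, a large particle called the small subunit processome folds and cuts it, and separate sets of assembly factors bring the precursors of the 40S and 60S subunits to maturity. The pathway is a main consumer of resources in growing cells, many of its genes are known targets of the transcription factor MYC, and a block in it is known to stabilise p53 through free ribosomal proteins that bind MDM2.

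The deposited table holds only genes with an adjusted p below 0.05, each with its log2 fold change and p-values, raw and adjusted, and has no values per library. Directions are read as DEG-35 over DMSO, which the header does not state, and all of them would turn round under the other reading. Errors are standard errors (SE) implied by the fold change and its p-value, and the p-values measure the spread among 3 libraries per group that the labels do not call separate cultures. A gene absent from the table, here called not listed, may have failed the threshold or may not have been tested. No levels are given, so the labelled cell type could not be checked against its markers.

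Most listed nucleolar genes were lower with DEG-35, and the changes were small. In the authors' deposited table, lower values were given for 21 of the 44 genes and higher values for 5, and 18 genes were not listed. Read against the background, 47.7% of the group was lower where 24.0% of all genes tested were, and 11.4% was higher where 21.4% of all genes tested were. In all, 59.1% of the group was listed, beside 45.3% of all genes tested. At an adjusted p of 0.01, 16 genes were lower and 2 higher, so that 40.9% of the group passed beside 36.8% of all genes tested, and 36.4% was lower beside 19.7%. With Bonferroni adjustment over 15064 tests, 12 were lower and 1 higher, 29.5% of the group beside 20.9% of all genes tested. The median log2 fold change of the 26 listed genes was -0.27 and that of all 6831 listed genes -0.19. The median size of the change, regardless of sign, was 0.29 for the group and 0.47 for all listed genes. The median implied SE was 0.0633 for the group's listed genes and 0.0891 for all listed genes, so smaller changes could be listed in the group. How far this bears on the listed share and the median size was not tested. The majority turned to 16 higher against 10 lower when all fold changes were shifted up by 0.3. A shift of 0.1 either way could change no sign, because the smallest listed change in the group was 0.14. In a bulk measurement, a lower value cannot be told apart between less RNA per cell and fewer cells that express the gene.

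The group spanned a narrow range. In the authors' deposited table the lowest log2 fold change was that of TCOF1 (-0.69) and the highest that of NOB1 (0.51), and 0 of the 26 genes changed by 1 or more. Only TCOF1, UTP20 and NOB1 reached 0.5 in size. The implied SEs of the listed genes lay between 0.0531 and 0.0930 with a median of 0.0633. At that median, a gene needed a change of 0.14 to be listed, and the smallest listed change in the group, that of POLR1B, was 0.14 in the authors' deposited table.

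**Figure D1:**
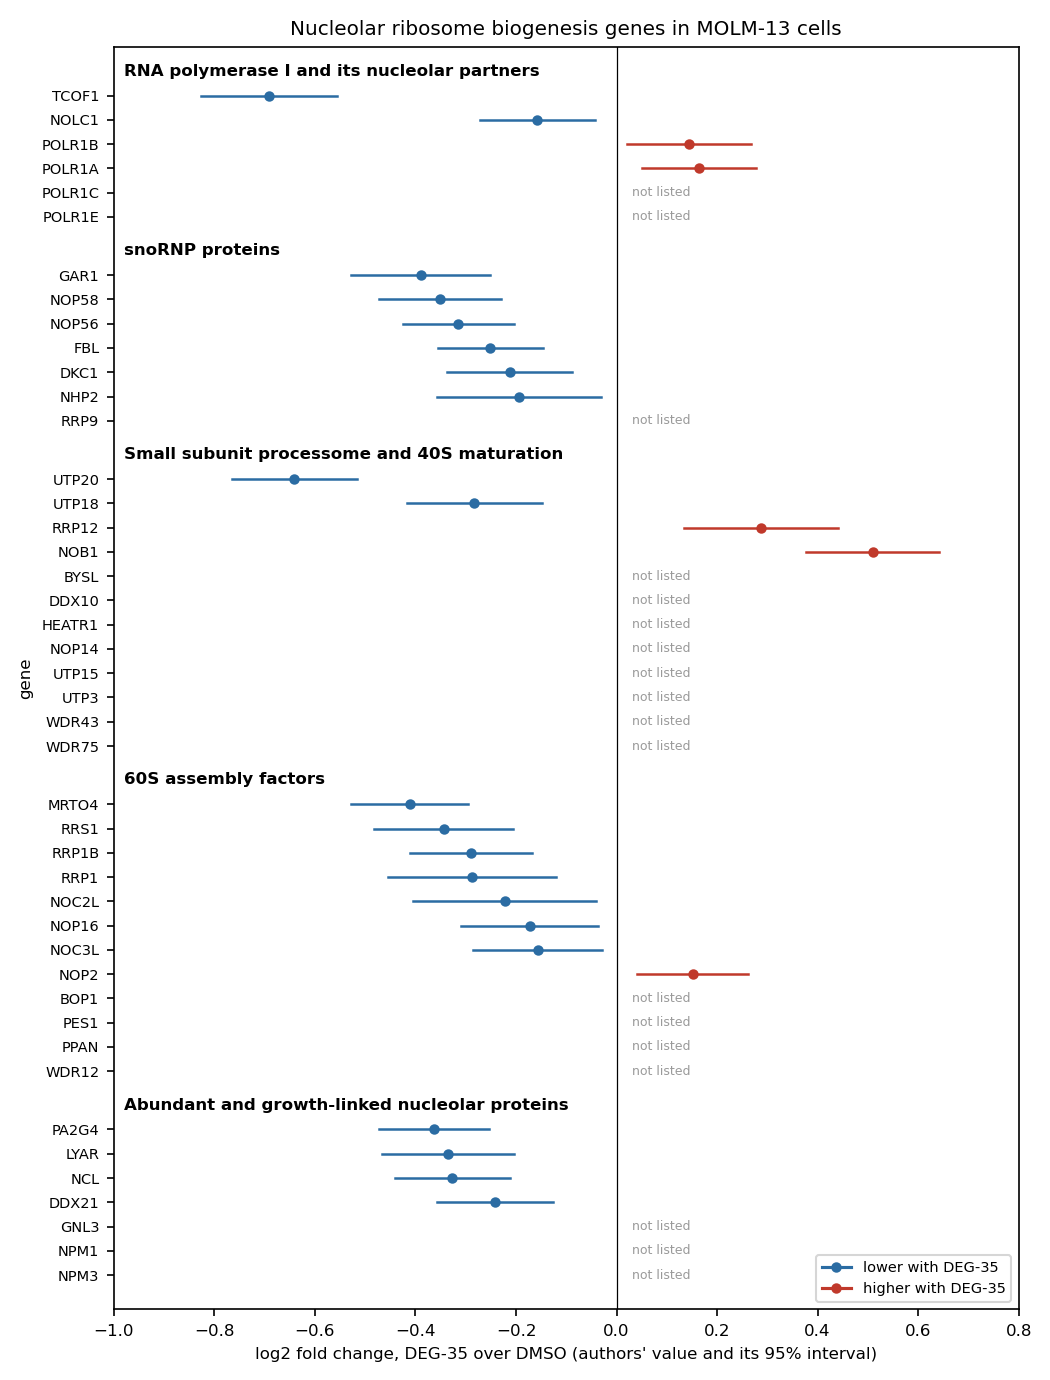
Log2 fold change, DEG-35 over DMSO, of the 44 nucleolar ribosome biogenesis genes by role; points are the authors' deposited values and lines are 95% intervals from the implied SE. Of the 26 listed genes 21 lie below 0 (10 after an upward shift of all values by 0.3), TCOF1 and UTP20 lie lowest, NOB1 lies highest, and the 18 genes without a value are marked as not listed.

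Many of the promoters share one sequence feature that played no part in choosing the genes. The canonical E-box CACGTG, which MYC with its partner MAX and several other basic helix-loop-helix factors can bind, reads the same on both strands. RefSeq promoter windows of GRCh38.p14, from 250 bases before to 50 bases after a transcription start, were found for 36 of the 44 genes, and 15 of these (41.7%) held it in at least 1 window. Of all 27305 genes with such a window 8.77% held it, and of the 15843 protein-coding ones 10.9%. Of the 4987 genes of the authors' deposited table with a window 12.7% held it. Among 5 lists of further ribosome biogenesis genes, described below, it was in 26.0% of the 127 genes with a window, from 11.1% for snoRNP genes, 11.8% for RNA polymerase I genes and 15.0% for the exosome and nucleases to 27.3% for 60S genes and 40.5% for processome and 40S genes. Among the lower genes it was in 8 of the 16 with a window, among the higher genes in 1 of 4, and among those not listed in 6 of 16. These are descriptions of letters, not of binding. The stretches below, read 5′ to 3′ on the gene's strand with the E-box in capitals, are shown for the 8 lower genes, for NOP2, a higher gene, and for PES1, which was not listed, to let them be compared.
UTP20: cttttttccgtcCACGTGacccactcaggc
MRTO4: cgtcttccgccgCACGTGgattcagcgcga
GAR1: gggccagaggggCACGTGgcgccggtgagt
LYAR: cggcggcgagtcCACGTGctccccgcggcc
UTP18: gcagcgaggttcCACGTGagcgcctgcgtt
FBL: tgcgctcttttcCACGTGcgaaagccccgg
DDX21: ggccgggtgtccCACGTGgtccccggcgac
NOC3L: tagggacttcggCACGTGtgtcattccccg
NOP2: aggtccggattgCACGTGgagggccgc
PES1: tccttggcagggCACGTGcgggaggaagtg

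The E-boxes lay close to the start. Of 16 sites in the 15 genes, 14 were within 50 bases of it and 11 lay downstream of it. By gene, 38.9% of the 36 held the E-box within 50 bases of a start, against 20.5% of the further ribosome biogenesis genes, 35.1% of the processome and 40S genes among these, and 3.51% of all genes with a window. In GRCh38.p14 the UTP20 stretch is chr12:101280083-101280112 on the plus strand, with the E-box beginning 10 bases before the start. The FBL stretch is chr19:39846356-39846385 on the minus strand and the MRTO4 stretch is chr1:19251807-19251836 on the plus strand, with the E-box beginning at bases 7 and 15 of the transcript. LYAR had its site 64 bases before the start (chr4:4290068-4290097, minus strand), and UTP18 had a further one 89 bases before it. The E-box was found in genes with and without a listed change: FBL and PES1 both carry it just inside the transcript, and of these FBL was listed and PES1 was not.

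**Figure D2:**
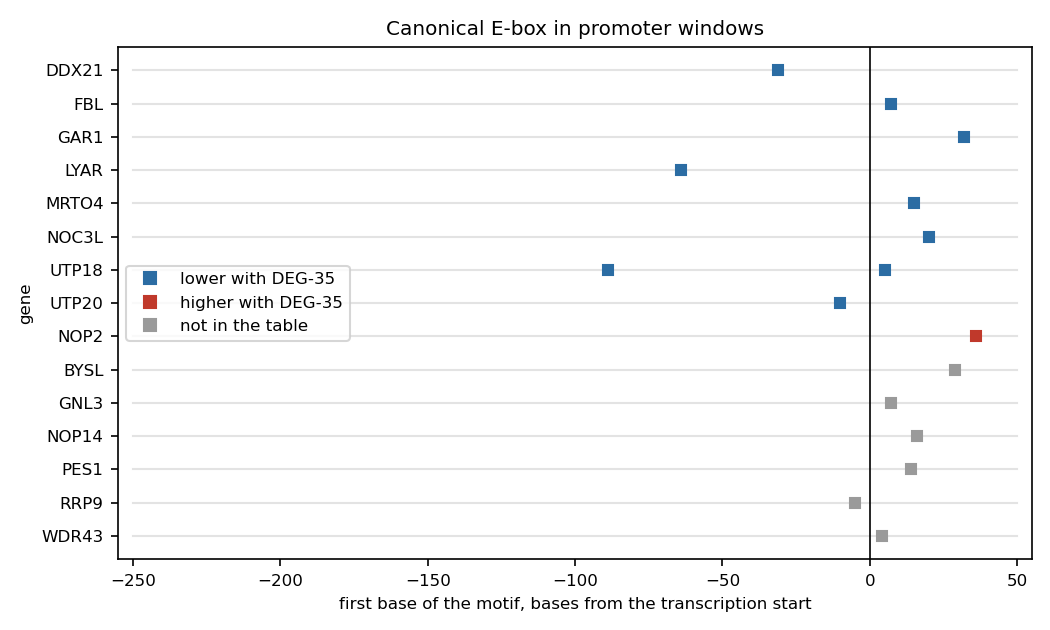
Position of the first base of each canonical E-box, in bases from the RefSeq transcription start, in the promoter windows of the 15 genes that hold one; grey lines span the window and colours give the direction with DEG-35. Of the 16 sites, 14 lie within 50 bases of the start, in lower, higher and unlisted genes alike.

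RNA polymerase I and its partners did not move as 1 unit. Of 6 genes 2 (33.3%) were lower, 2 (33.3%) higher and 2 not listed, beside 24.0% lower and 21.4% higher among all genes tested. TCOF1, which encodes treacle, the nucleolar phosphoprotein that supports rRNA gene transcription and is altered in Treacher Collins syndrome, had the largest fall of the whole group: the authors' deposited table gives -0.69 ± 0.0691 (implied SE), 1.62-fold lower with DEG-35 (adjusted p = 2.66e-22). NOLC1, a phosphoprotein that accompanies snoRNPs, fell by 0.16 ± 0.0586 on the log2 scale in the authors' deposited table (adjusted p = 0.0182). The genes of the catalytic core went the other way. POLR1A rose by 0.16 ± 0.0581 (adjusted p = 0.0128) and POLR1B by 0.14 ± 0.0631 (adjusted p = 0.0489) in the authors' deposited table, 1.12-fold and 1.11-fold higher. POLR1B was the gene nearest to the threshold, and neither passed at an adjusted p of 0.01. POLR1C, a subunit shared with RNA polymerase III, and POLR1E were not listed.

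The snoRNP proteins moved together. Of 7 genes 6 (85.7%) were lower and 0 higher, beside 24.0% lower and 21.4% higher among all genes tested. Their log2 fold changes had a median of -0.28 and lay between -0.39 and -0.19, although 3 of the 6 would stand above 0 after an upward shift of all values by 0.3. For the box C/D snoRNPs, which methylate rRNA, the methyltransferase gene FBL stood at -0.25 ± 0.0531 (adjusted p = 1.12e-05) in the authors' deposited table. The genes of its scaffold proteins, NOP56 at -0.31 ± 0.0560 (adjusted p = 1.24e-07) and NOP58 at -0.35 ± 0.0616 (adjusted p = 7.93e-08), fell by similar amounts in the same authors' deposited table. SNU13, listed under its older name NHP2L1 and encoding the remaining core protein, stood at -0.26 ± 0.0591 there, so 4 of 4 core genes of this particle were lower, a set put together after the values had been seen. For the box H/ACA snoRNPs, which convert uridine to pseudouridine, GAR1 stood at -0.39 ± 0.0703 (adjusted p = 1.86e-07) in the authors' deposited table. The pseudouridine synthase gene DKC1 stood at -0.21 ± 0.0633 (adjusted p = 0.00244) and NHP2 at -0.19 ± 0.0832 (adjusted p = 0.0444) in that authors' deposited table. NOP10, the other core gene, was not listed, nor was RRP9, which encodes a protein of the U3 snoRNP.

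Several of these genes carry snoRNA genes inside them. In GENCODE release 29, 7 of the 44 genes contained 25 snoRNA genes, of which 2 were listed, both inside NOP56. The authors' deposited table gives SNORD86 at -0.92 ± 0.0801 (adjusted p = 3.85e-29) and SNORD57 at -0.66 ± 0.189 (adjusted p = 0.00158). Both lay below their host at -0.31. The libraries were made from mRNA, and reads of host transcripts that keep an intron can fall on these snoRNA genes, so that neither value measures the mature snoRNA alone.

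The small subunit processome and 40S group was mostly not listed, and its listed genes diverged. Of 12 genes 2 were lower, 2 higher and 8 not listed, a listed share of 33.3% beside the 45.3% of all genes tested. UTP20, which encodes a long scaffold protein of the processome, was 1.56-fold lower with DEG-35 (-0.64 ± 0.0634, adjusted p = 9.59e-23 in the authors' deposited table). UTP18, a WD-repeat protein of the same particle, stood at -0.28 ± 0.0684 (adjusted p = 1.39e-04) in the authors' deposited table. The 2 higher genes were NOB1 and RRP12. NOB1, the endonuclease that makes the mature end of the small-subunit rRNA, was 1.42-fold higher with DEG-35 (0.51 ± 0.0679, adjusted p = 6.47e-13 in the authors' deposited table). RRP12, known for the export of subunit precursors from the nucleus, rose by 0.29 ± 0.0779 (adjusted p = 7.69e-04) in the authors' deposited table. The processome genes NOP14, UTP3, UTP15, HEATR1, WDR43 and WDR75, the helicase gene DDX10 and the late 40S factor gene BYSL were not listed.

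Listed factors of 60S assembly were mostly lower. Of 12 genes 7 (58.3%) were lower, 1 (8.33%) higher and 4 not listed, beside 24.0% lower and 21.4% higher among all genes tested. The listed had a median of -0.25 on the log2 scale, and after an upward shift of all values by 0.3 only 2 would stand lower. MRTO4, whose product holds the place of the stalk protein P0 on the precursor, fell by 0.41 ± 0.0597 (adjusted p = 4.68e-11) in the authors' deposited table. RRS1, which helps to load the 5S rRNA particle, fell by 0.34 ± 0.0705 (adjusted p = 5.59e-06) there. The paralogs RRP1 and RRP1B had nearly the same value, -0.29 ± 0.0854 and -0.29 ± 0.0620, in the authors' deposited table. The falls of NOC2L at -0.22 ± 0.0930, NOP16 at -0.17 ± 0.0693 and NOC3L at -0.16 ± 0.0652 were the least certain, with adjusted p-values in the authors' deposited table of 0.0386, 0.0296 and 0.0368, and were lost at 0.01. NOP2, an rRNA methyltransferase gene also known as a proliferation antigen, was the 1 higher gene, at 0.15 ± 0.0566 (adjusted p = 0.0190) in the authors' deposited table. PES1, BOP1 and WDR12, whose products form 1 complex needed for 60S rRNA processing, were all not listed, and neither was PPAN.

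Of the 7 genes of abundant or growth-linked nucleolar proteins 4 (57.1%) were lower and 0 higher, with values between -0.36 and -0.24. Among all genes tested 24.0% were lower and 21.4% higher. PA2G4, a growth-regulated RNA-binding protein also called EBP1, stood at -0.36 ± 0.0560 (adjusted p = 7.01e-10) in the authors' deposited table. NCL, which encodes nucleolin, stood at -0.33 ± 0.0580 (adjusted p = 1.18e-07) and the zinc-finger gene LYAR at -0.34 ± 0.0670 (adjusted p = 2.81e-06) in the authors' deposited table. DDX21, a helicase that acts on rRNA and snoRNA, stood at -0.24 ± 0.0588 (adjusted p = 1.59e-04) in the authors' deposited table. NPM1, which encodes the histone chaperone nucleophosmin and is often mutated in acute myeloid leukaemia, its relative NPM3, and GNL3, which encodes nucleostemin, were not listed. GENCODE release 29 names 45 pseudogenes after NPM1 and 5 after PA2G4. The sources used here do not say how reads shared with such copies were counted.

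Listed genes of the rest of the pathway were also mostly lower. Of 145 further ribosome biogenesis genes in 5 lists, 66 (45.5%) were lower, 14 (9.66%) higher and 65 not listed, and the median over the listed was -0.27 on the log2 scale, beside 24.0% lower and 21.4% higher among all genes tested. Among the listed genes, the lower share ran from 66.7% for 60S genes to 100% for snoRNP genes and for the exosome and nucleases. Under an upward shift of all values by 0.3, the majority turned to higher in 4 of the 5 lists and stayed lower in that of the exosome and nucleases. Whether the group differs from these lists was not tested.

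**Figure D3:**
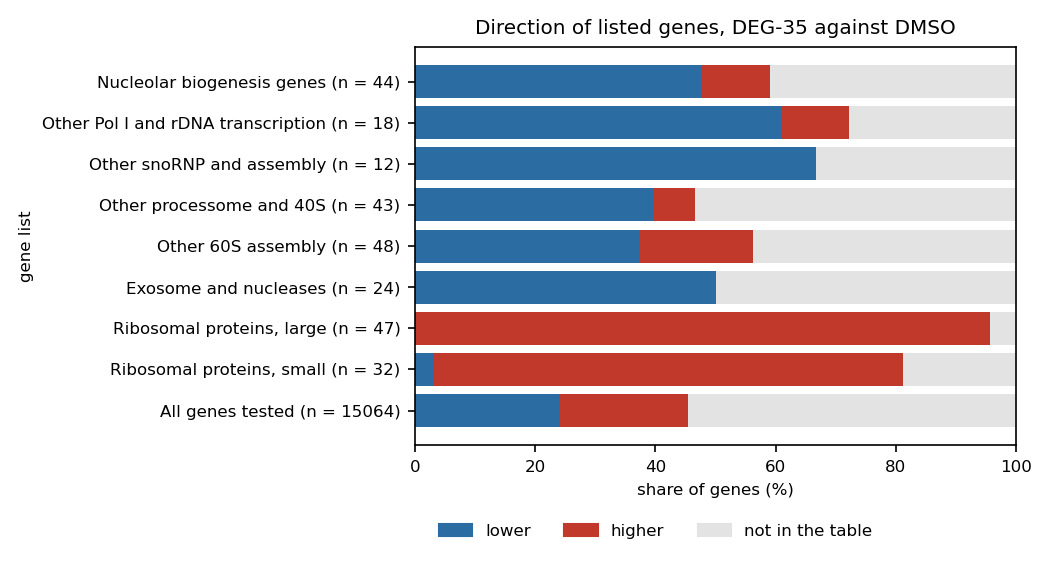
Share of each gene list, in percent, that was lower, higher or absent from the authors' deposited table, DEG-35 against DMSO. Lower genes make up 47.7% of the nucleolar group and 24.0% of all genes tested, and higher genes 88.6% of the 79 ribosomal protein genes; with all values shifted up by 0.3 the majority in the nucleolar group turns to higher.

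In rRNA gene transcription, 11 of 18 further genes (61.1%) were lower and 2 (11.1%) higher, beside 24.0% and 21.4% of all genes tested. The list also holds subunits shared with RNA polymerase II and subunits of RNA polymerase III. Of these, POLR2F, POLR2H, POLR2K, POLR2L and POLR3B were lower, and POLR2E and POLR3A were not listed. POLR1F, listed as TWISTNB and encoding a subunit of RNA polymerase I, was at -0.78 ± 0.0686 in the authors' deposited table, lower than any of the 44 genes. UBTF, the factor that organises active rRNA genes, was at -0.55 ± 0.0596 and the termination factor gene TTF1 at -0.59 ± 0.0868 in the authors' deposited table. POLR1D, a subunit shared with RNA polymerase III, and TAF1D, a subunit of the selectivity factor, were higher at 0.39 ± 0.0588 and 0.35 ± 0.0682 in the authors' deposited table. Of the 8 subunits not shared with RNA polymerase II, a set put together after the values had been seen, POLR1A, POLR1B and POLR1D were thus higher, POLR1F and POLR1G (listed as CD3EAP, -0.20 ± 0.0725 in the authors' deposited table) lower, and 3 not listed.

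Further snoRNP genes were lower in 8 of 12 cases (66.7%) and higher in 0, beside 24.0% lower and 21.4% higher among all genes tested. They were led by PIH1D1, part of a chaperone complex for snoRNP assembly, at -0.50 ± 0.0781, with SNU13 and the assembly factor gene NUFIP1 (-0.32 ± 0.0833) next by adjusted p in the authors' deposited table. Of 43 further processome and 40S genes 17 (39.5%) were lower and 3 (6.98%) higher. NOL11 (-0.38 ± 0.0665), PNO1 (-0.37 ± 0.0701) and RRP36 (-0.36 ± 0.0693) had the smallest adjusted p-values among the lower genes of the authors' deposited table, and PDCD11 (0.21 ± 0.0532), UTP14A (0.26 ± 0.0731) and UTP6 (0.24 ± 0.0675) were the 3 higher ones. Listed genes of the processome and 40S subunit were thus evenly divided within the chosen group, whereas 17 of the 20 further ones were lower, a difference that was not tested.

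Of 48 further 60S genes 18 (37.5%) were lower and 9 (18.8%) higher, beside 24.0% lower and 21.4% higher among all genes tested. BRIX1 (-0.51 ± 0.0689), the helicase gene DDX24 (-0.38 ± 0.0597) and EBNA1BP2 (-0.38 ± 0.0610) led the lower genes in the authors' deposited table, and RSL1D1 (0.34 ± 0.0591), NSA2 (0.26 ± 0.0677) and the anti-association factor gene EIF6 (0.23 ± 0.0675) the higher ones. The exosome and other nucleases that trim rRNA precursors had 12 of 24 genes (50%) lower and 0 higher. The median of their log2 fold changes was -0.46. EXOSC9, at -1.19 ± 0.0762, and EXOSC8, at -1.12 ± 0.0718, which encode subunits of the exosome ring, and the exonuclease gene ERI1, at -0.88 ± 0.0797, exceeded every one of the 44 genes in size in the authors' deposited table.

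Ribosomal protein genes, the structural counterpart of this machinery, stood on the other side of 0. Of 79 genes 70 (88.6%) were higher, 1 (1.27%) lower and 8 not listed, beside 21.4% higher and 24.0% lower among all genes tested. The median over the listed was 0.32 on the log2 scale. After a downward shift of all values by 0.3 the higher ones numbered 29 of 45 for the large subunit and 15 of 26 for the small one. RPL12 (0.48 ± 0.0517), RPL4 (0.42 ± 0.0528) and RPL7A (0.40 ± 0.0515) of the large subunit and RPS19 (0.49 ± 0.0601) of the small one were among the higher genes in the authors' deposited table. RPS26 was the lower one, at -0.22 ± 0.0609 in the authors' deposited table. The 26 listed nucleolar genes and the 71 listed ribosomal protein genes overlapped in range, and RPS26 lay among the lower nucleolar genes. Among the 5 higher nucleolar genes, RRP12 (0.29) lay within the values of the 70 higher ribosomal protein genes. NOB1 (0.51) lay above them all. POLR1A (0.164), NOP2 (0.15) and POLR1B (0.14) were above 0 but below all 70. The lowest of the 70 stood at 0.165 in the authors' deposited table. The E-box was in 41.7% of the 36 nucleolar genes with a promoter window, against 26.0% of the 127 further biogenesis genes and 6.35% of the 63 ribosomal protein genes with one. Among the further lists the share ran from 11.1% to 40.5%. It was 11.1% for the snoRNP genes and 15.0% for the exosome and nucleases, the lists whose listed genes were all lower. Whether the fold changes of the nucleolar and the ribosomal protein genes differ was not tested, since the table holds no values per library. The E-box shares were described only and not tested.

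**Figure D4:**
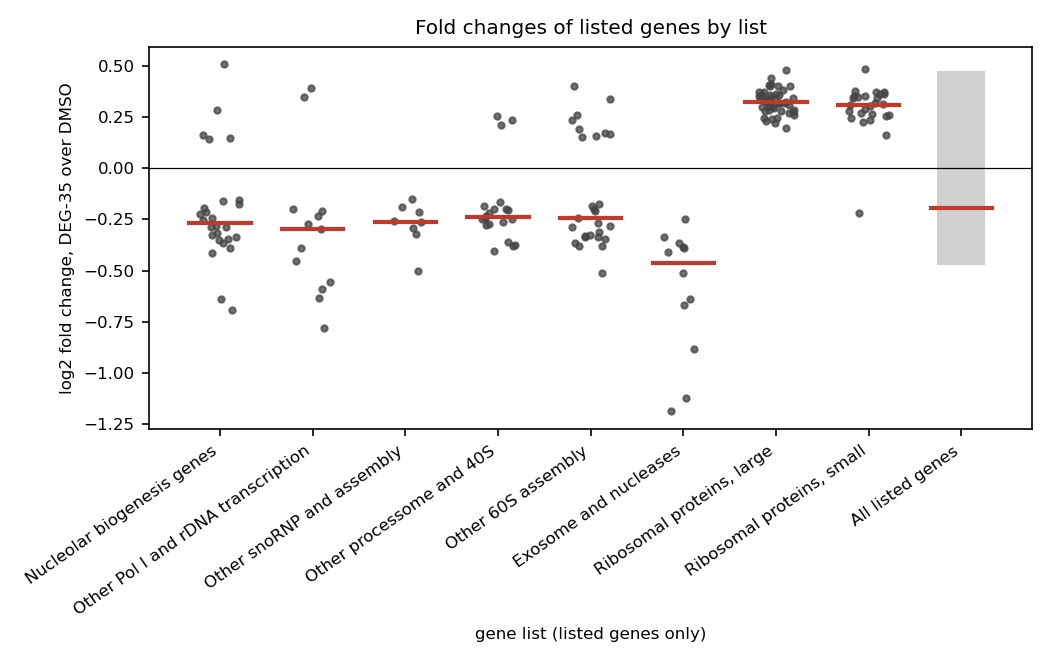
Log2 fold change, DEG-35 over DMSO, of the listed genes of each list; points are genes, red lines medians, and the grey box spans the quartiles of all 6831 listed genes (-0.47 to 0.47). The median is -0.27 for the nucleolar genes, 0.0329 with all values shifted up by 0.3, and lies above 0 for both sets of ribosomal protein genes.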

How the data were processed

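Column-purified RNA of MOLM-13 cells kept with DEG-35 or DMSO went into SMARTer mRNA libraries, per the labels' protocols. The submitters' processing notes name hg19, STAR, featureCounts and DESeq2, with no versions or options. Strand use is not stated in the sources used here. The authors deposited 1 table that holds per gene, per the file headers, the log2 fold change and its p-value before and after adjustment. Library depths are unknown.

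The adjusted p-values imply a Benjamini-Hochberg adjustment over 15064 tests (within 0.0413% for 2789 genes). The authors' calls were used as deposited. The implied SE, the absolute log2 fold change over the normal quantile of the two-sided p-value, assumes a Wald test. Its code was run on simulated data made under that same assumption, so the run could not check the assumption. Whether the deposited values meet it was not tested.

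The genes and lists were chosen with earlier results of these data known. All 44 genes are named, and from each of the other lists up to 3 genes per direction by adjusted p. POLR1G, the subunits of RNA polymerases II and III, RPL5, MDM4, RPF2 and genes overlapping members on either strand were named after their values were seen. Not every gene of the lists is reported here. Older symbols were matched for 10 genes. E-boxes were searched on both strands of RefSeq windows of GRCh38.p14. GENCODE release 29 gave overlaps and pseudogenes by name. BOP1, NOLC1, NOP58, POLR1E, RRP12, RRP1B, RRS1 and TCOF1 had no window. Paralog proteins were not compared, and no list was tested as a set. Alternatives were other thresholds, an SE limit, shifted fold changes and exact symbols. Software was Python 3.11.15 with Matplotlib 3.10.9, SciPy 1.17.1, NumPy 2.4.6 and pandas 2.3.3.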

Additional observations from a re-analysis of the deposited data

How the results depend on the processing

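No paired analysis was possible because the table holds 1 comparison without values per library. Leaving out a replicate was not run for the same reason. Counts below are of genes in each list's majority direction (lower where tied). At an adjusted p of 0.01, 2 nucleolar genes were higher, 1 of the polymerase I group and 4 of the 60S group lower, and 7 further polymerase I and 4 further snoRNP genes lower. With Bonferroni adjustment over 15064 tests, 12 nucleolar genes were lower and 1 higher, with 1 lower in the polymerase I group, 1 in the processome group and 3 in the 60S group. The further polymerase I, snoRNP, processome, 60S and exosome lists then had 4, 1, 4, 6 and 7 lower genes, and 15 small-subunit protein genes and 2 p53 regulators were higher. With a minimum change of 0.3, 10 nucleolar genes were lower and 1 higher, with 1, 3, 1 and 2 lower in the polymerase I, snoRNP, processome and 60S groups and 6, 2, 4 and 10 in the further lists of those names. Higher genes then numbered 29 and 15 for large- and small-subunit proteins and 2 for p53 regulators. An upward shift of 0.3 gave the same counts of lower genes in these groups and lists, with 16 nucleolar genes higher and a median of 0.0329. The majority then reversed for the whole group, the 60S group and the 4 further lists. A downward shift of 0.3 gave 1 higher nucleolar gene, 4 lower polymerase I genes, 29 and 15 higher subunit protein genes, 2 higher p53 regulators, where the majority reversed, and a median of -0.57. Shifts of 0.1 up and down gave medians of -0.17 and -0.37, and unlisted genes set to 0 a median of 0. An implied SE of at most 0.2 and exact current symbols left every count within 1.5 times its reported value. Neither could change the counts of the 44 genes, whose largest implied SE was 0.0930 and whose listed genes all had current symbols. The E-box share was 38.9% with windows of 50 bases on both sides of the start, against 41.7%.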

Other observations

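Of 11 genes of MYC and its partners 3 were higher, 1 lower and 7 not listed, among the last MYC, MAX and MNT. The listed share was 36.4% and the higher share 27.3%, near the 45.3% and 21.4% of all genes tested. The 4 listed genes, MXD1, MXD3, MXD4 and MXI1, all encode MYC antagonists. MXD4 and MXD1, whose products compete with MYC for MAX and repress E-box genes, were higher with DEG-35 at 1.67 ± 0.110 (adjusted p = 3.06e-50) and 0.72 ± 0.0820 (adjusted p = 2.41e-17) in the authors' deposited table. MXI1, of the same family, was at 0.22 ± 0.0704, and MXD3 at -0.42 ± 0.0618 was the lower one in the authors' deposited table. Their part in the values of the nucleolar genes was not tested.

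Among 9 genes that link ribosome assembly to p53, 5 (55.6%) were higher and 1 (11.1%) lower, beside 21.4% and 24.0% of all genes tested. A downward shift of all values by 0.3 turned the majority to lower. MDM2, a ubiquitin ligase gene, had the largest change of the list, at 1.74 ± 0.0631 (adjusted p = 3.73e-164), and its relative MDM4 was at 0.26 ± 0.0683 in the authors' deposited table. RPL5 (0.28 ± 0.0630), RPL11 (0.32 ± 0.0602) and RPL23 (0.28 ± 0.0616), ribosomal proteins known to bind MDM2, were higher in the authors' deposited table. RRS1 (-0.34) and RPF2 (-0.29 ± 0.0730), the factors that load RPL5 and RPL11 with the 5S rRNA onto the 60S precursor, were lower in the authors' deposited table. The splicing factor gene SRSF1 was at -0.64 ± 0.0569 in the authors' deposited table.

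Some nucleolar genes overlap others on the opposite strand, and strand use in counting is not given. The longest of these opposite-strand overlaps were of HEATR1 with LGALS8 (2095 exon bases), NOP14 with NOP14-AS1 (605) and RRP12 with AL355490.2 (519). PA2G4 with AC034102.4 (434) and NOB1 with AC092115.3 (429) came next, and none of these neighbours was listed. Of listed neighbours in the authors' deposited table, XPO5 (-0.15 ± 0.0598) shares 348 with POLR1C and ANKRA2 (0.85 ± 0.113) 244 with UTP15. HIGD2A (0.19 ± 0.0725) shares 227 with NOP16, and EMC1 (0.31 ± 0.0643) 14 with MRTO4. On the same strand, NOP2 shares 2550 exon bases with AC006064.6, PPAN 1447 with PPAN-P2RY11 and PA2G4 458 with AC034102.2. None of these neighbours on the same strand was listed, and how reads shared with them were counted is not given. All pairs were chosen after their values were seen.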
